A study of Mus musculus with 4 samples.

Results

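The ligands of the tumour necrosis factor (TNF) superfamily and the receptors of the TNF receptor superfamily were examined in α lymphoid progenitors (αLPs) of mouse bone marrow by single-cell RNA sequencing. Members were all genes of the count tables whose symbols begin with Tnfsf or Tnfrsf, together with Tnf, Lta, Ltb, Ltbr, Cd27, Cd40, Cd40lg, Fas, Fasl and Cd70. This gave 37 of the 26421 genes listed, of which 20 are receptors and 17 are ligands. The table of experiment 1 held 34 members and that of experiment 2 held 36, with 33 in both. Fasl was listed only in experiment 1, and Cd40lg, Cd70 and Tnfsf4 were listed only in experiment 2.

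TNF superfamily ligands are trimers, made mostly as membrane proteins, and their receptors carry cysteine-rich domains outside the cell. Receptors with a death domain, such as TNFR1 (encoded by Tnfrsf1a), DR3 (Tnfrsf25), DR6 (Tnfrsf21) and Fas, can engage caspases or NF-κB, whereas receptors without one bind TRAF adaptors and feed the canonical and non-canonical NF-κB pathways. Among innate lymphoid cells (ILCs), lymphotoxin made by lymphoid tissue inducer (LTi) cells is known for its role in lymph node formation, and DR3 and GITR (Tnfrsf18) are known as costimulatory receptors of group 2 ILCs (ILC2s).

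The study compared wild-type (WT) mice with G3SEKO mice, in which CRISPR-Cas9 removed the tandem super-enhancer region linked to Gata3. αLPs (Lin-CD127+FLT3-LPAM-1+ cells) were pooled from several mice of each genotype, stained with MHC class I hashtags and run together on BD Rhapsody with TAS-Seq. Experiment 1 was sorted on a FACSAria II and its labels give the strain C57BL/6, while experiment 2 was sorted on a BD Melody with no strain in its labels. The study used young adult mice of both sexes. The labels of experiment 2 list both of its hashtags under WT, and the second was taken as G3SEKO, so every G3SEKO value of experiment 2 rests on that reading. Under it, cells placed in the Il1rl1+ population described below were 62.3% and 69.1% of WT cells in experiments 1 and 2 and 2.33% and 4.23% of G3SEKO cells. Experiment 1 used 3 hashtags for each genotype, which are not said to mark single mice.

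After filtering, experiment 1 held 681 WT and 43 G3SEKO cells and experiment 2 held 5130 and 1159, and the kept cells of both experiments shared 5 barcode numbers. Cells were placed in 5 populations by a gate gene at or above 1 on the scale of ln(1 + reads per 10000). Each cell went to the first gate it passed, in the order Ccr6, Eomes, Il1rl1, Zbtb16 and Icos. WT cells of experiments 1 and 2 numbered 88 and 216 in Zbtb16+, 80 and 564 in Icos+, 424 and 3546 in Il1rl1+, 25 and 27 in Eomes+, and 2 and 39 in Ccr6+. The G3SEKO cells numbered 17 and 355 in Zbtb16+, 6 in Icos+ of experiment 1, 1 and 49 in Il1rl1+, 5 and 42 in Eomes+, and 2 and 109 in Ccr6+, and Icos+ cells were 26.9% of the 1159 G3SEKO cells of experiment 2. The median WT Zbtb16+ cell had 645160 reads in experiment 1 and 47644 in experiment 2. The summed level of 5 ILC precursor (ILCP) markers, the gate gene included, was 4049 and 4198 CPM in WT Zbtb16+ cells and 201 and 151 CPM in WT Il1rl1+ cells. In the same cells 8 ILC2 markers, with the gate gene Il1rl1 and Gata3 among them, summed to 1009 and 1219.5 CPM and to 3429 and 3603 CPM. Values are CPM, reads of the gene per 1000000 reads summed over the cells of a population, so a lower share of expressing cells and less RNA per cell cannot be told apart. Reads carried no molecular identifiers, and counting intervals and floors cover counting error only.

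Of the 37 members, 21 reached at least 10 CPM in a WT population in both experiments, counting the 2 WT Ccr6+ cells of experiment 1. The other 16 ranged from 0 to 29.2 CPM over the WT populations, with Tnfsf12 in Ccr6+ cells of experiment 2 at the top, and 15 of these 16 stayed under 10 CPM in the Zbtb16+, Icos+ and Il1rl1+ cells. Fas, the receptor of Fas ligand, peaked at 8.82 CPM in Icos+ cells of experiment 1, and Fasl, read only in experiment 1, peaked at 0.0284 CPM. Tnfrsf4 (OX40) did not exceed 9.67 CPM and its ligand gene Tnfsf4 did not exceed 10.1 CPM. Cd40lg had no read in any WT population. Ltb, the gene of lymphotoxin β, lay between 357 and 1897 CPM over the WT sums of at least 5 cells.

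**Figure D1:**
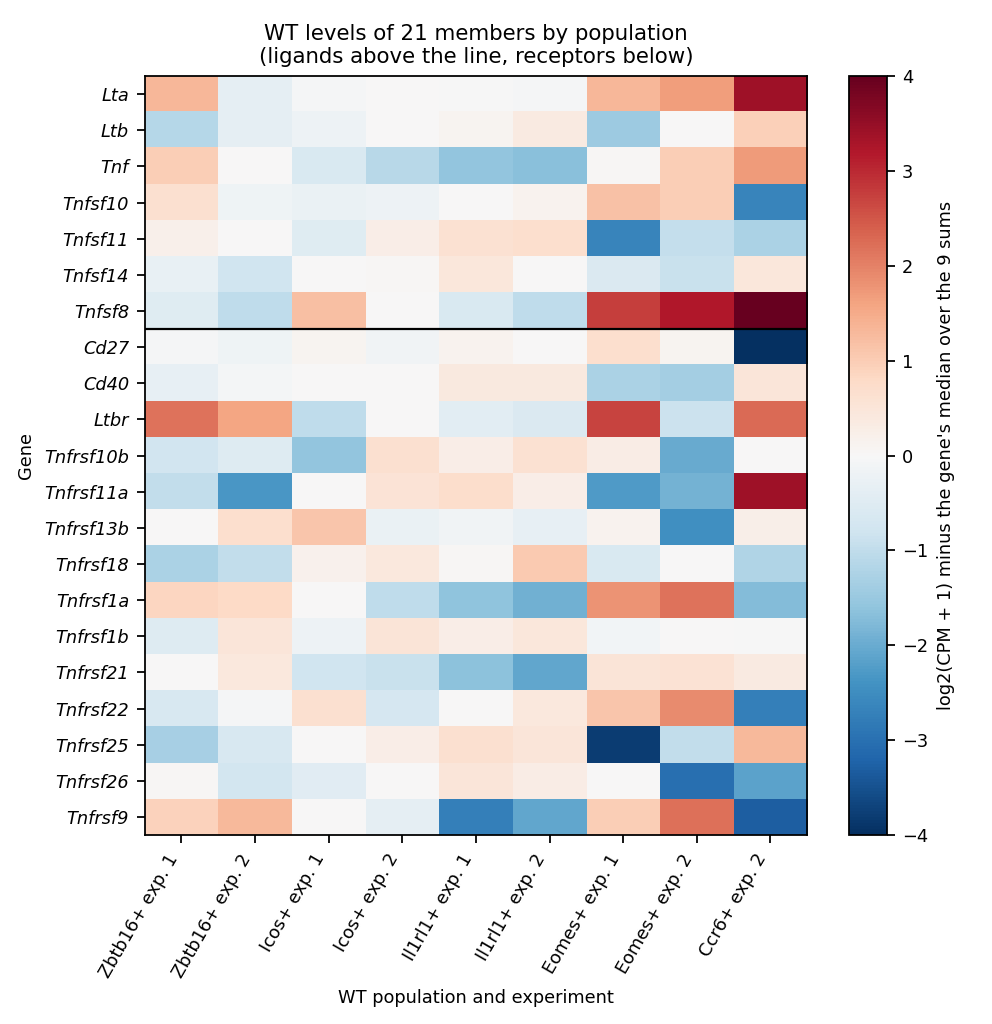
Heat map of the 21 members that reached 10 CPM in a WT population in both experiments, with ligands above the line and receptors below it. Columns are the 9 WT sums of at least 5 cells, and colour gives log2(CPM + 1) minus the gene's median over the 9 sums, with the scale ending at -4 and 4. Tnfrsf1a, Tnfrsf9, Tnfrsf21 and Tnf are blue in both Il1rl1+ columns, and Cd27 in Ccr6+ cells (1.01 CPM) lies beyond the low end of the scale.

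The first comparison asked how the members differed between WT Zbtb16+ cells, which carry the ILCP markers, and WT Il1rl1+ cells, which express the IL-33 receptor gene and the ILC2 markers. Il1rl1+ cells had lower Tnfrsf9, Tnfrsf1a, Ltbr, Tnf and Tnfrsf21 and higher Tnfrsf11a, Tnfrsf18, Tnfrsf25 and Tnfrsf10b, each at least 2-fold on CPM + 1 in both experiments. By that rule, which was chosen after the values were seen and carries no p, 5 of the 20 members with enough reads were lower, against 6.52% of 9040 genes, and 4 were higher, against 4.88%. The median log2 ratio was 0.46 over these 20 members and -0.07 over the 9040 genes. Markers of other ILC types were also lower in Il1rl1+ cells, with 7 NK cell and ILC1 markers at a summed 221 and 130 CPM in Zbtb16+ against 21.2 and 19.1 CPM in Il1rl1+ cells, and 4 LTi and ILC3 markers at 293 and 370 against 42.8 and 26.1 CPM, and their part in the ratios was not tested.

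Among the ligands, Tnf stood at 25.0 and 12 CPM in Zbtb16+ cells of experiments 1 and 2 and at 3.34 and 3.13 CPM in Il1rl1+ cells. Its mean log2 ratio was -2.12 ± 0.66 (SD, n = 2 experiments). Within experiment 1 the hashtags overlapped, at 5.70 to 48.7 CPM in Zbtb16+ and 0.466 to 6.05 CPM in Il1rl1+ cells. Ltb pointed the other way, with 447 and 767 CPM in Zbtb16+ cells against 1074 and 1267 CPM in Il1rl1+ cells, and passed 2-fold in experiment 1 alone. Tnfsf14, which encodes LIGHT, a ligand of the lymphotoxin β receptor, was at 98.5 and 70.6 CPM against 168 and 122 CPM, under 2-fold in both experiments. Tnfsf10 (TRAIL) and Lta (lymphotoxin α) differed in opposite directions in the experiments, with Tnfsf10 at 82.1 and 46.1 CPM in Zbtb16+ and 52.5 and 57.6 CPM in Il1rl1+ cells. Tnfsf11, the gene of RANK ligand, was at 39.6 and 34.1 CPM in Zbtb16+ and 52.4 and 55.1 CPM in Il1rl1+ cells.

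Tnfrsf1a, which encodes the main receptor for soluble TNF, was at 85.3 and 81.6 CPM in Zbtb16+ cells and 14.4 and 11.6 CPM in Il1rl1+ cells. The mean log2 ratio was -2.60 ± 0.16 (SD, n = 2), and the hashtags of experiment 1 did not overlap, with 56.5 to 115 CPM against 8.29 to 20.9 CPM. After each cell was thinned to the same number of reads, 34.1% (95% exact binomial interval 24.3 to 45.0) and 15.3% (10.8 to 20.8) of Zbtb16+ cells kept a Tnfrsf1a read, against 3.77% (2.17 to 6.06) and 1.66% (1.27 to 2.14) of Il1rl1+ cells. These intervals cover counting error within 1 pooled sum, since cells are not replicates, and test no difference. Before thinning the shares were 65.9% and 24.1% against 20.3% and 2.65%. No population here served as one that should lack the gene. Tnfrsf1b, the gene of the other TNF receptor, was at 23.0 and 46.0 CPM against 39.9 and 45.7 CPM, so in experiment 2 the 2 populations had almost the same level.

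Tnfrsf9, which encodes the costimulatory receptor 4-1BB, had the lowest ratio of the 20 members in both experiments, at 17.5 and 23.5 CPM against 0.487 and 1.32 CPM (mean log2 ratio -3.52 ± 0.17, SD, n = 2). Its reads came from 20 of 88 and 13 of 216 Zbtb16+ cells. Tnfrsf21, which encodes DR6, was at 33.4 and 45.5 CPM against 9.92 and 7.20 CPM (-2.08 ± 0.60). Ltbr, the lymphotoxin β receptor gene, was at 34.6 and 22.4 CPM against 4.88 and 4.27 CPM (-2.37 ± 0.32). The hashtag sums of experiment 1 did not overlap for Tnfrsf9, Tnfrsf21 or Ltbr. For Ltbr they ran from 15.8 to 49.7 CPM in Zbtb16+ and from 2.91 to 6.33 CPM in Il1rl1+ cells.

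Of the receptors that were higher in Il1rl1+ cells, Tnfrsf18 was at 59.2 and 72.8 CPM in Zbtb16+ and 150.0 and 299 CPM in Il1rl1+ cells (mean log2 ratio 1.67 ± 0.49, SD, n = 2). Thinned shares of cells with a Tnfrsf18 read were 9.09% and 14.4% in Zbtb16+ and 28.3% and 29.6% in Il1rl1+ cells, against 65.1% and 36.8% of Il1rl1+ cells with all reads. Tnfrsf25 was at 35.7 and 58.1 CPM against 142 and 129 CPM (1.55 ± 0.58). Hashtags of experiment 1 did not overlap for these receptors, with Tnfrsf25 at 3.42 to 48.7 CPM in Zbtb16+ and 134 to 146 CPM in Il1rl1+ cells. Tnfrsf11a, the gene of RANK, was low in both populations, at 4.03 and 0.965 CPM against 15.4 and 11.1 CPM (2.16 ± 0.65), and its hashtag sums overlapped. Tnfrsf10b, which encodes a TRAIL receptor, was at 6.73 and 8.17 CPM against 14.8 and 18.8 CPM (1.07 ± 0.06), just past the limit of 2-fold, and its hashtag sums overlapped (3.29 to 10.8 CPM against 6.66 to 21.5 CPM). Ltb in experiment 2 (log2 ratio 0.72) and Tnfrsf26 in experiment 1 (0.44) lay inside it, each past it in the other experiment. Cd27, a costimulatory receptor gene, was nearly level at 159.6 and 147 CPM against 182 and 166 CPM.

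**Figure D2:**
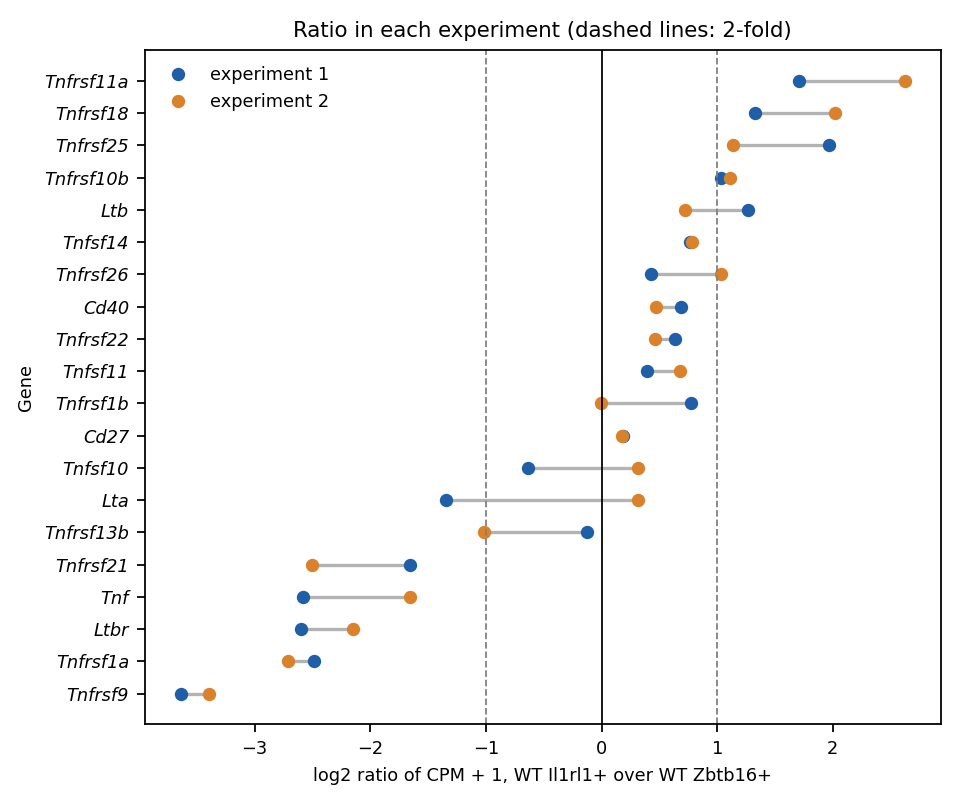
Log2 ratio of CPM + 1, WT Il1rl1+ over WT Zbtb16+ cells, in experiment 1 (blue) and experiment 2 (orange) for the 20 members with enough reads, with dashed lines at 2-fold. Tnfrsf9 lies farthest to the left at -3.64 and -3.40 and Tnfrsf11a farthest to the right at 1.70 and 2.62, and the points of Lta and Tnfsf10 lie on both sides of 0.

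No member passed edgeR's quasi-likelihood test on the 9 WT sums at an adjusted p of 0.05, where 0.569% of 15457 genes did. At an unadjusted p under 0.05 there were 11 of 33 members, against 10.7% of genes, and the lowest adjusted p values were 0.0549 for Tnfrsf1a (log2 change -2.63, SE 0.39) and 0.0658 for Tnfrsf18 (1.78, SE 0.28). DESeq2 called 7 members, against 6.92% of genes, namely Tnf, Tnfrsf11a, Tnfrsf18, Tnfrsf1a, Tnfrsf21, Tnfrsf9 and Tnfsf14. The fit of the 6 WT sums of Zbtb16+, Icos+ and Il1rl1+ cells, which hold at least 80 cells each and were set apart after the data were seen, called 6 members with edgeR, against 4.13% of genes. These were Tnfrsf1a, Tnfrsf9 and Tnfrsf21, lower with adjusted p of 0.0189, 0.0375 and 0.0491 in edgeR, and Ltb, Tnfrsf18 and Tnfrsf25, higher with adjusted p of 0.0226, 0.0232 and 0.0243. With 1 sum for each population and experiment, p-values measure only the spread between these sums.

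Icos+ cells passed neither the Zbtb16 nor the Il1rl1 gate. Levels in the order Zbtb16+, Icos+, Il1rl1+ decreased in both experiments for 4 of the 21 members (Tnf, Tnfrsf1a, Tnfrsf21 and Tnfrsf9), increased in both for 4 (Ltb, Tnfrsf25, Cd27 and Cd40) and did neither for 13. Of 9729 genes with a row in both tables, 9.6% decreased and 7.79% increased in this way. These genes reached 10 CPM in any WT population of each experiment, a looser rule than for the members, which reached it in the same population. Tnfrsf1a was at 46.4 and 22.6 CPM in Icos+ cells and Tnfrsf25 at 90.9 and 110.4 CPM. The steps of Cd27 and of Cd40, another costimulatory receptor gene, were small, Cd40 running from 6.80 and 8.24 through 8.91 and 8.69 to 11.6 and 11.8 CPM.

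**Figure D3:**
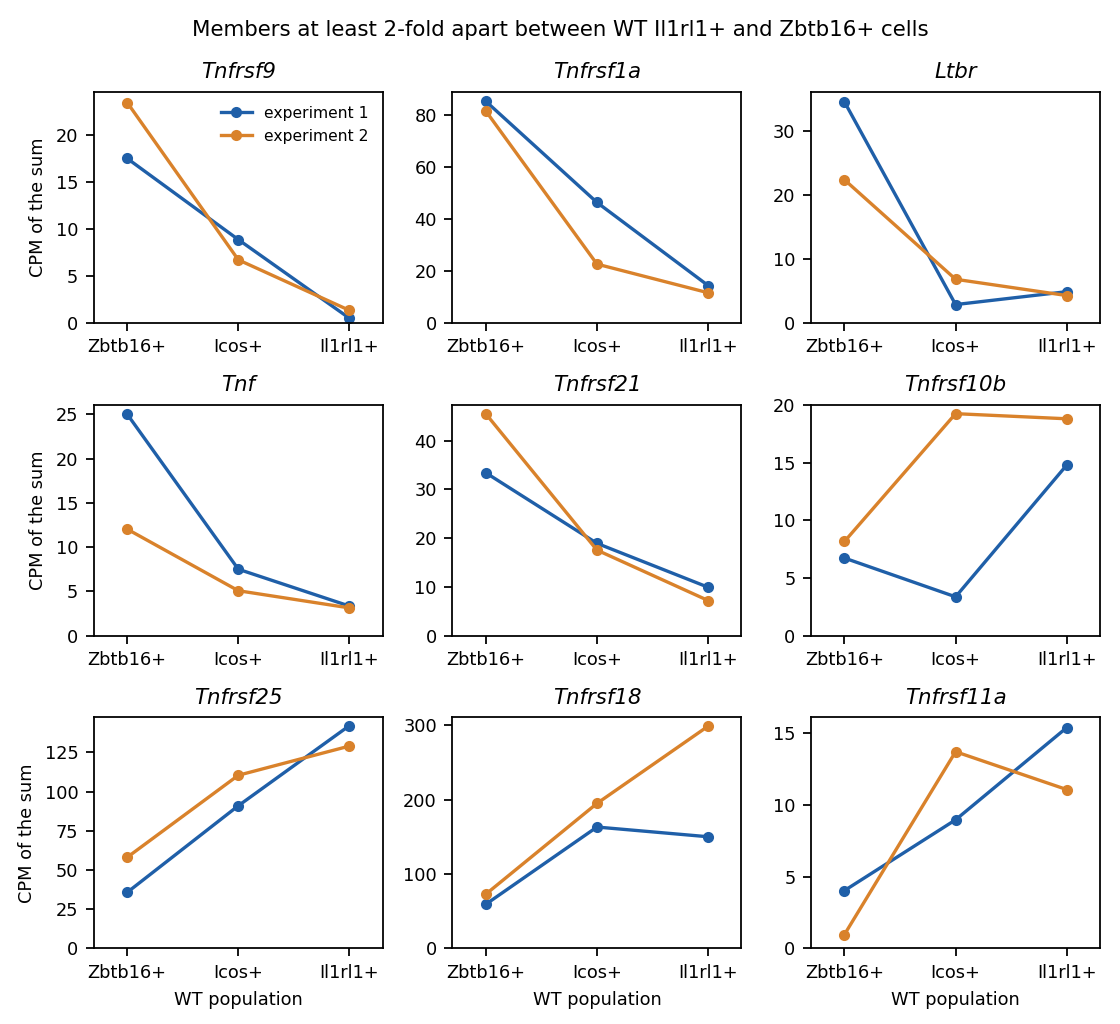
CPM of the summed WT cells in Zbtb16+, Icos+ and Il1rl1+ populations, with 1 line for each experiment, for the 9 members at least 2-fold apart between Il1rl1+ and Zbtb16+ cells. Tnfrsf9, Tnfrsf1a, Tnf and Tnfrsf21 decrease and Tnfrsf25 increases at every step in both experiments, whereas Ltbr in Icos+ cells (2.86 and 6.82 CPM) was already close to its Il1rl1+ level.

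Against Zbtb16+ cells, Icos+ cells had higher Tnfrsf18, at 163 and 195 CPM (mean log2 ratio 1.43 ± 0.03, SD, n = 2), and lower Ltbr (-2.39 ± 1.15) and Tnf, at 7.50 and 5.07 CPM (-1.36 ± 0.36). These were 1 of 17 members higher than 2-fold, against 3.8% of 9031 genes, and 2 lower, against 3.71%. WT Icos+ cells had more Il2ra (173 and 299 CPM) than WT Zbtb16+ cells (11.8 and 79.9 CPM). Their ILCP markers summed to 819 and 362 against 4049 and 4198 CPM, and their LTi and ILC3 markers to 137 and 89.1 against 293 and 370 CPM. NK cell and ILC1 markers were higher in experiment 1 and lower in experiment 2, at 295 and 20.4 against 221 and 130 CPM. The part of these cells in the ratios was not tested. Among cells without an Il1rl1 or Il2ra read after thinning, a choice made after the data were seen, the log2 ratio of Tnfrsf18 was 0.95 and 1.10, so that 0 of 18 members were higher than 2-fold in both experiments, against 3.9% of genes. With each gate taken alone it was 0.81 and 0.56. The edgeR test called 0 of 33 members, against 0.0129% of genes, with 8 at an unadjusted p under 0.05, against 8.13%, and 2 among cells without an Il1rl1 or Il2ra read, against 8.33%. DESeq2 called 3, against 3.88%, namely Tnfrsf18 and Tnfsf8, higher, and Tnfsfm13, lower. In experiment 1 the hashtags held 0, 1 and 183 reads of Tnfsf8 in Icos+ cells and 225, 8 and 5 reads of Tnfsfm13 in Zbtb16+ cells. In the fit of 6 sums edgeR called none, against 0.813%, with 14 at an unadjusted p under 0.05, against 16.5%. The comparisons with Zbtb16+ cells share those cells, so they are not independent of each other.

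The remaining members above 10 CPM showed no order that both experiments shared. Lta was at 33.7 and 9.80 CPM in Zbtb16+, 12.4 and 12.9 CPM in Icos+, 12.7 and 12.4 CPM in Il1rl1+ and 33.4 and 43.5 CPM in Eomes+ cells, so its Zbtb16+ level differed more between experiments than the other populations did. Tnfrsf13b, which encodes the BAFF and APRIL receptor TACI, was at 28.8 and 47.1 CPM in Zbtb16+, 62.7 and 24.0 CPM in Icos+, 26.3 and 22.7 CPM in Il1rl1+ and 32.2 and 4.46 CPM in Eomes+ cells. Tnfrsf26 was at 30.8 and 17.6 CPM in Zbtb16+, 21.5 and 29.9 CPM in Icos+ and 41.8 and 37.0 CPM in Il1rl1+ cells. The populations overlapped for Tnfrsf13b, whereas both Il1rl1+ sums of Tnfrsf26 were above the other 4. Tnfrsf22 was at 7.54 and 11.8, 19.9 and 7.25, and 12.3 and 16.7 CPM in these populations. In Icos+ cells Tnfsf14 was at 122 and 125 CPM, Tnfsf10 at 43.3 and 45.9 CPM, Tnfsf11 at 24.3 and 41.2 CPM and Tnfsf8 at 4.05 and 1.17 CPM. Tnfsf8 was at 0.539 CPM or less in both Zbtb16+ and both Il1rl1+ sums.

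Several members lie close together in GRCm38 (GENCODE annotation), among them 4 of the 8 that kept 1 order over the 3 populations (Ltb, Tnf, Tnfrsf1a and Cd27). Ltb (chr17:35194439-35196320, + strand), Tnf (chr17:35199381-35202007, - strand) and Lta lie within 10.9 kb, yet Ltb increased along the order in which Tnf decreased. Tnfrsf1a, Ltbr and Cd27 lie within 129.9 kb on chromosome 6, and the first 2 were lower in Il1rl1+ cells while Cd27 was slightly higher. Tnfrsf18 and Tnfrsf4 lie within 15.1 kb on chromosome 4. Tnfrsf22, Tnfrsf23 and Tnfrsf26 on chromosome 7 are close relatives within 78.2 kb, and on chromosome 11 Tnfsfm13 overlaps both Tnfsf12 and Tnfsf13, so reads of either group could have been split between its genes.

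Upstream sequences of 5 of the 8 ordered members are shown because members that kept the same order, and the neighbours Ltb and Tnf that did not, can be read side by side. Each is the part of the RefSeq promoter entry of GRCm38.p6 that lies before the annotated gene start, 5′ to 3′ on the gene's strand. Positions are chr17:35194257-35194438 for Ltb, chr4:152115684-152115933 for Tnfrsf25, chr6:125237028-125237277 for Cd27, chr17:35202008-35202257 for Tnf and chr17:43016305-43016554 for Tnfrsf21. Capitals mark a match to an NF-κB motif with any bases allowed in its centre, on either strand.
Ltb: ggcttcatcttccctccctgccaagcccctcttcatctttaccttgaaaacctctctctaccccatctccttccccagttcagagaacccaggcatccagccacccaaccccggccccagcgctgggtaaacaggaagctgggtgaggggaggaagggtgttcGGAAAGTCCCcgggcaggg
Tnfrsf25: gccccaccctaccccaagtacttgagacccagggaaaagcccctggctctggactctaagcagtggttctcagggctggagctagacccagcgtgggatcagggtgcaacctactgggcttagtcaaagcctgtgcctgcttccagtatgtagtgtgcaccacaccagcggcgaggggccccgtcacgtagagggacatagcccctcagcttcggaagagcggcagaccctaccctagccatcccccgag
Cd27: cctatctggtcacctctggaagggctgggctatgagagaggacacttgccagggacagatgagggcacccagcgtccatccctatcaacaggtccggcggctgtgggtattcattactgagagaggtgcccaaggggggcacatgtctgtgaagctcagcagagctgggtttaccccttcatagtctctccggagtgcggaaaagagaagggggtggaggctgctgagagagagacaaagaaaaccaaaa
Tnf: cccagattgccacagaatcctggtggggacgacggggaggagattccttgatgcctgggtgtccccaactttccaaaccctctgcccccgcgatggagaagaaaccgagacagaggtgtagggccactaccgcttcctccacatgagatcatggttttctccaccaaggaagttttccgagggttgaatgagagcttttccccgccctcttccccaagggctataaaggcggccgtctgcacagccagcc
Tnfrsf21: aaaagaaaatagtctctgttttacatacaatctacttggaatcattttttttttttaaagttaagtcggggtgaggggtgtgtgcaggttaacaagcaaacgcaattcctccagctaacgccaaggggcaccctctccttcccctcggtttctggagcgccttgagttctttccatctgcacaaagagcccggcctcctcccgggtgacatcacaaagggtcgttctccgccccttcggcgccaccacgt
Only the Ltb sequence of these 5 held a match, on the strand opposite to the gene. Over the upstream parts of all 32851 RefSeq entries, 1.21% held that motif, counted on both strands. The GATA motif AGATAA was found in 9.99% of them, and 14% held a ROR motif, spelled AGGTCA. Of 31 entries for the 28 members with a sequence, 1 held the NF-κB motif (Ltb), 1 the GATA motif (Tnfsf13b) and 2 the ROR motif (Tnfrsf13b and another start of Tnfrsf25). A match is a description of letters, and the absence of one says only that these letters are not in the window.

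Ccr6+ cells, gated on a chemokine receptor gene of LTi cells and ILC3s, had little Cd27 and more of several ligand genes than Zbtb16+ cells. Experiment 2, the only one with at least 5 WT Ccr6+ cells, held 39 of them, with 4 LTi and ILC3 markers (Ccr6 among them) at a summed 1861 CPM against 370 CPM in Zbtb16+ cells. Cd27 had 2 reads in 2 of the 39 cells (1.01 CPM), against 147 CPM in the Zbtb16+ cells of experiment 2, a level 146-fold lower (95% counting interval 40.3 to 1204). The other Ccr6+ sums were also low, at 2.55 CPM in 2 WT cells and 0.822 CPM in 2 G3SEKO cells of experiment 1 and 5.51 CPM in the 109 G3SEKO cells of experiment 2. Every other WT sum of at least 5 cells had Cd27 between 147 and 264 CPM.

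The lymphotoxin and TNF ligand genes were higher in Ccr6+ cells. Lta was at 146 CPM against 9.80 CPM in Zbtb16+ cells, Ltb at 1897 against 767 CPM, and Tnf at 41.8 against 12 CPM. Tnfsf8, which encodes CD30 ligand, was at 39.3 CPM from 5 of 39 cells, against a single read in the 216 Zbtb16+ cells, a level 529-fold higher (92.2 to 21154). Tnfsf14 was at 168 against 70.6 CPM, and Tnfsf12 (TWEAK) at 29.2 against 9.35 CPM. Tnfsf10 (7.55 against 46.1 CPM) and Tnfsf11 (13.6 against 34.1 CPM) were lower. The ratio of Tnfsf12 reversed with a gate limit of 2 (log2 -0.065) and that of Tnfsf11 with thinned cells (0.17).

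Of the receptors, Tnfrsf11a was at 104 against 0.965 CPM, with reads in 14 of 39 Ccr6+ and 8 of 216 Zbtb16+ cells, and Tnfrsf25 at 226 against 58.1 CPM. Tnfrsf1a was at 13.1 against 81.6 CPM. Tnfrsf9 had 0 reads in Ccr6+ cells, which allows up to 1.51 CPM (3 reads), so its level was at least 15.5-fold lower than in Zbtb16+ cells. Tnfrsf22 and Tnfrsf26, a decoy receptor gene and its relative, were at 1.01 and 6.04 against 11.8 and 17.6 CPM, and the ratio of Tnfrsf26 reversed with a gate limit of 2 (log2 0.17). Taking the fold rule in experiment 2 alone, 8 of 22 members were higher than 2-fold, against 17.7% of 9643 genes, and 7 were lower, against 25.1%.

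**Figure D4:**
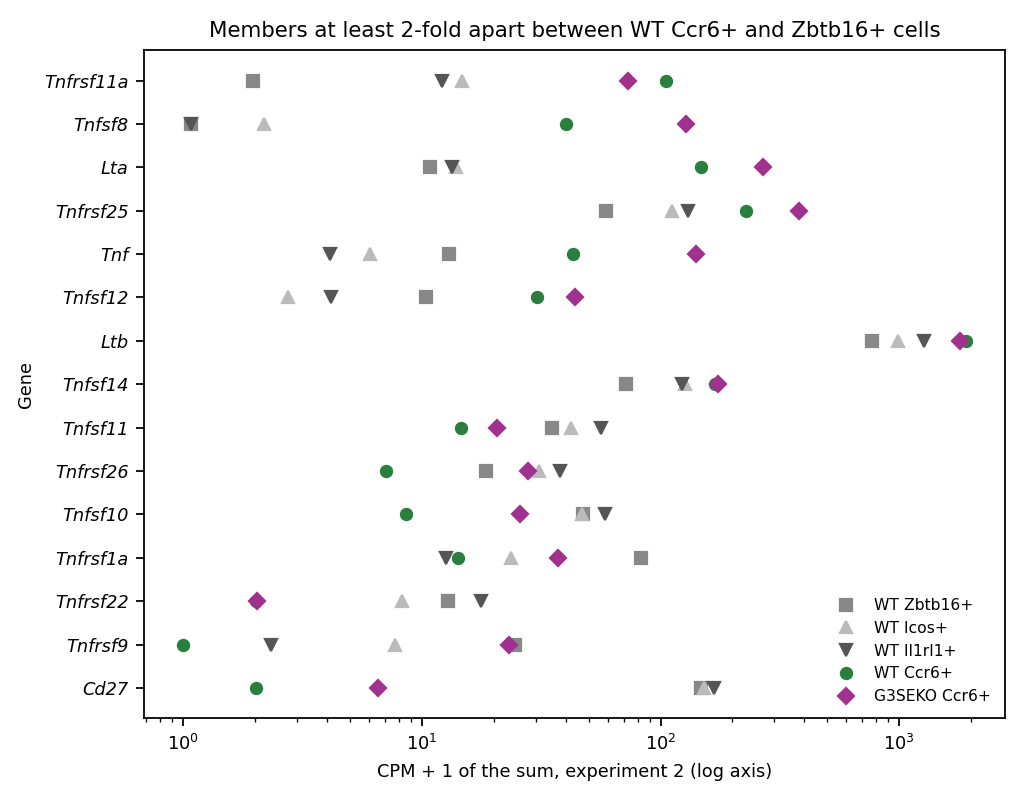
CPM + 1 on a log axis in experiment 2 for the members at least 2-fold apart between WT Ccr6+ and WT Zbtb16+ cells. Each member has 1 marker for each of WT Zbtb16+, WT Icos+, WT Il1rl1+, WT Ccr6+ and G3SEKO Ccr6+ cells. Cd27 is at the left for both Ccr6+ sums (1.01 and 5.51 CPM), while Tnfrsf11a, Tnfsf8, Lta and Tnfrsf25 are to the right of Zbtb16+ in both, and for Tnfrsf22 the WT and G3SEKO Ccr6+ markers coincide.

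In edgeR, where the WT Ccr6+ cells entered with 1 sum, Cd27 was the only one of 33 members called (log2 change -7.12, SE 0.54, adjusted p 0.0229), against 0.207% of 15457 genes. At an unadjusted p under 0.05 there were 10, against 16.7% of genes, and DESeq2 called 9, against 12.4%. The edgeR call on Cd27 was lost when cells were placed by each gate alone or with a gate limit of 2. With the lone sum, the fit assumes that Ccr6+ cells vary as the other populations do.

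WT Eomes+ cells, gated on a transcription factor gene of NK cells, had the highest Tnfrsf1a of the WT sums, at 165 and 213 CPM against 85.3 and 81.6 CPM in Zbtb16+ cells. Only Tnfsf8 and Tnfrsf22 passed 2-fold upward in both experiments, 2 of 18 members against 2.63% of 8783 genes, and 0 passed downward, against 6.65%. Tnfsf8 was at 13.6 and 19.0 CPM from 2 of 25 and 3 of 27 cells, and Tnfrsf22 at 27.4 and 47.9 CPM from 5 and 2 cells. T lineage markers (7 genes, with 0 and 2 of them at 0) summed to 373 and 90.3 CPM in these cells against 39.4 and 18.9 CPM in Zbtb16+ cells. When cells with CD3 genes were left out the mean log2 ratio of Tnfsf8 was -0.37. edgeR called 0 of 33 members, against 0.00647% of genes, with 9 at an unadjusted p under 0.05, against 14.3%, and DESeq2 called 6, against 9.22%.

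The genotype comparison asked which members depended on the deleted region. Gata3, the gene that the deleted region is linked to, was at 862 and 782.5 CPM in WT and 937 and 498 CPM in G3SEKO Zbtb16+ cells, and at 1209 and 1004 against 763 and 461 CPM in Icos+ cells. In Il1rl1+ cells of experiment 2 it was at 1039 and 296 CPM. Thus in Zbtb16+ cells Gata3 was lower in experiment 2 alone.

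In Zbtb16+ cells the levels of most members with enough reads were close between genotypes or moved in opposite directions in the experiments. Ltb was at 447 and 767 CPM in WT and 497 and 772 CPM in G3SEKO cells. Ltbr was at 34.6 and 22.4 against 34.7 and 22.6 CPM, and Tnfrsf18 at 59.2 and 72.8 against 86.7 and 76.0 CPM. Tnfrsf1a went from 85.3 to 12 CPM in experiment 1, where 17 G3SEKO cells were read, and from 81.6 to 133 CPM in experiment 2. Tnfrsf9 likewise went from 17.5 to 0.166 CPM and from 23.5 to 36.2 CPM. Tnfrsf25 was higher in G3SEKO cells in both, at 152 and 83.9 CPM against 35.7 and 58.1 CPM. By the fold rule 0 of 17 members differed, where 0.745% of 8862 genes were higher and 1.06% lower. edgeR and DESeq2 each called 0 of 30 members, against 0% and 0.0525% of 13335 genes. In edgeR Tnfrsf25 alone had an unadjusted p under 0.05, against 1.47% of genes, in a fit of 4 sums that left 1 residual degree of freedom.

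In Icos+ cells Tnfrsf18 was lower in G3SEKO than in WT cells, at 71.8 and 57.1 CPM against 163 and 195 CPM (mean log2 ratio -1.46 ± 0.41, SD, n = 2 experiments). The thinned share of cells with a Tnfrsf18 read was 12.5% (9.04 to 16.7) against 25.0% (21.5 to 28.8) in experiment 2, where the intervals again cover counting error within 1 pooled sum of each genotype and test no difference, and experiment 1 had 6 G3SEKO cells, 4 with a read. The G3SEKO levels lay near those of WT Zbtb16+ cells. Tnfsf11 was also lower, at 1.56 and 18.9 against 24.3 and 41.2 CPM, though with a gate limit of 0.5 its mean log2 ratio was 0.33. Tnf was higher, at 138 and 12.2 against 7.50 and 5.07 CPM, but all 531 reads of experiment 1 came from 1 of the 6 cells. Tnfrsf25, the other ILC2 costimulatory receptor gene, was under 2-fold higher in both, at 149.9 and 182 against 90.9 and 110.4 CPM.

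These made 1 of 15 members higher, against 1.46% of 8582 genes, and 2 lower, against 2.75%. The median log2 ratio over all these genes was -0.20. edgeR and DESeq2 called 0 of 30 members, each against 0.186% of 13426 genes. In edgeR only Tnfrsf18 had an unadjusted p under 0.05 (log2 change -1.43, SE 0.64), against 3.14% of genes. That fit held 4 sums and left 1 residual degree of freedom. Its p-values lean on a spread shared over genes rather than on that of Tnfrsf18 alone. WT Icos+ cells carried more Il1rl1 (22.6 and 41.6 CPM) and Il2ra (173 and 299 CPM) than G3SEKO Icos+ cells, with Il1rl1 at 3.37 and 10.2 CPM and Il2ra at 2.85 and 48.5 CPM. Among cells without an Il1rl1 or Il2ra read after thinning, a choice made after the data were seen, the log2 ratio of Tnfrsf18 was -0.84 in experiment 1 and -1.43 in experiment 2, the first now inside the 2-fold limit, and 0 members had an unadjusted p under 0.05 in edgeR, against 2.54% of genes. With each gate taken alone the ratios were -0.45 and -1.68. The difference of the genotype effect between Icos+ and Zbtb16+ cells, a test that was not planned, was -1.76 for Tnfrsf18 in edgeR (log2, SE 0.58). Tnfrsf18 was the only member at an unadjusted p under 0.05, against 1.8% of genes. No member was under it when only cells without an Il1rl1 or Il2ra read were used or when cells with CD3 genes were left out, against 1.68% and 1.8% of genes. After adjustment edgeR called 0 of 32 members, against 0% of 14467 genes, and DESeq2 called 0, against 0.0899%.

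**Figure D5:**
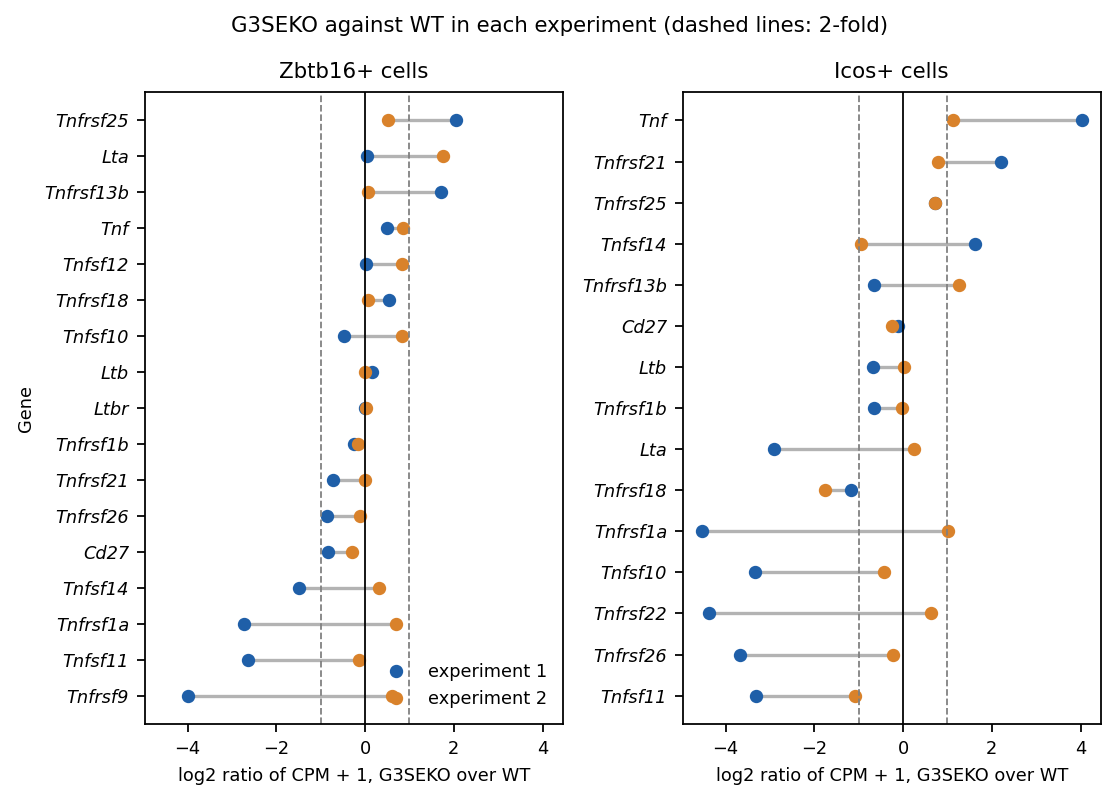
Log2 ratio of CPM + 1, G3SEKO over WT, in experiment 1 (blue) and experiment 2 (orange), for the 17 members with enough reads in Zbtb16+ cells and the 15 in Icos+ cells, with dashed lines at 2-fold. In Icos+ cells both points of Tnfrsf18 (-1.17 and -1.75) and Tnfsf11 (-3.31 and -1.09) lie left of the lower line, and for Tnfrsf1a the points lie on opposite sides of 0 in both panels.

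The Il1rl1+ population held 1 G3SEKO cell in experiment 1, so the genotypes were set side by side in experiment 2 alone, with 49 G3SEKO and 3546 WT cells. Tnfrsf1a was at 57.7 CPM in G3SEKO against 11.6 CPM in WT cells, Tnf at 11.4 against 3.13 CPM, Tnfrsf21 at 18.1 against 7.20 CPM, and Tnfrsf18 at 149 against 299 CPM. Ltb was at 984 against 1267 CPM. The G3SEKO cells of this gate also carried more of the ILCP markers, 1699 against 151 CPM, of the LTi and ILC3 markers, 284 against 26.1 CPM, and of the NK cell and ILC1 markers, 141 against 19.1 CPM. The ILC2 markers were lower, 1681 against 3603 CPM, in a sum that holds the gate gene Il1rl1 and Gata3, the gene linked to the deleted region. The part of these cells in the ratios was not tested. Past 2-fold were 4 of 19 members higher, against 15.5% of 9432 genes, and 3 lower, against 17.1%. The lower ones were Tnfsf11, at 23.2 against 55.1 CPM, Tnfrsf10b, at 3.14 against 18.8 CPM, and Tnfrsf22, which had 2 reads (0.785 CPM) against 16.7 CPM, a level 21.2-fold lower (95% counting interval 5.86 to 175). With a gate limit of 2 the ratios of the 4 higher members (Tnf, Tnfrsf1a, Tnfrsf21 and Tnfsf9) reversed. In a fit shared with the other sums edgeR called 0 of 33 members, against 0.0193% of 15510 genes, with 4 at an unadjusted p under 0.05, against 6.87%, and DESeq2 called 1, Tnfrsf4, against 3.33%.

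Ccr6+ cells of experiment 2 numbered 109 in G3SEKO and 39 in WT. Tnf was at 139.7 CPM in G3SEKO against 41.8 CPM in WT cells and Tnfsf8 at 126.5 against 39.3 CPM, with Tnf reads in 30 of 109 and 6 of 39 cells. Lta was at 269 against 146 CPM, Tnfrsf25 at 378 against 226 CPM and Ltb at 1788 against 1897 CPM, all under 2-fold. Tnfrsf9 had reads in 12 of 109 cells (22.2 CPM), at least 14.7-fold above the floor of the 0 reads in WT. Tnfsf9, Tnfrsf1a, Tnfrsf26, Tnfsf10 and Tnfsfm13 were also past 2-fold, of which Tnfrsf1a reversed with a gate limit of 2 (log2 -0.10) and Tnfsf10 with a gate limit of 0.5 (-0.20). This made 8 of 22 members higher, against 21.6% of 9409 genes, and 0 lower, against 17%. No test was made within Ccr6+ cells, since experiment 1 held 2 cells of each genotype.

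The members signal through a shared set of adaptors and NF-κB factors, of which 40 genes were listed and all were tested. In the comparisons of WT populations on 9 sums and in those of genotypes, edgeR called 0 of them outside Ccr6+ cells, with the shares of all genes given below. Nfkb2, the gene of the NF-κB subunit p100 that the non-canonical pathway processes, was higher in WT Ccr6+ than in Zbtb16+ cells (log2 change 3.11, SE 0.38, adjusted p 0.0482), at 397 against 36.9 CPM in experiment 2. The WT Ccr6+ cells entered with 1 sum, and the call was lost with Gm and ribosomal protein genes kept, gates taken alone, a gate limit of 0.5 or 2, cells with CD3 genes left out, and only cells without Il1rl1 or Il2ra reads. Of the 40 genes, 9 had an unadjusted p under 0.05 in that comparison, against 16.7% of all genes, and DESeq2 called 5 higher and 2 lower, against 12.4%.

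Between WT Il1rl1+ and Zbtb16+ cells edgeR called 0 of the 40 on the 9 sums, against 0.569% of genes, with 7 at an unadjusted p under 0.05, against 10.7%. DESeq2 called 5 higher, against 6.92%, and edgeR on the 6 sums called 6 higher, against 4.13%, with 15 at an unadjusted p under 0.05, against 18.7%. For Icos+ cells edgeR called 0, against 0.0129% of genes, with 4 at an unadjusted p under 0.05, against 8.13%. On the 6 sums edgeR called 0, against 0.813%, with 11 at that p, against 16.5%. On the 9 sums DESeq2 called 1 higher, against 3.88%. For Eomes+ cells edgeR called 0, against 0.00647% of genes, with 9 at an unadjusted p under 0.05, against 14.3%. DESeq2 called 5 higher and 2 lower there, against 9.22%. Between genotypes edgeR called 0 in both Zbtb16+ and Icos+ cells, against 0% and 0.186% of genes. At an unadjusted p under 0.05 there were 0 and 4, against 1.47% and 3.14%. DESeq2 called 0 and 0, against 0.0525% and 0.186%. For the difference of the genotype effect between Icos+ and Zbtb16+ cells both tools called 0, against 0% of genes in edgeR and 0.0899% in DESeq2. Each had 1 at an unadjusted p under 0.05, against 1.8% in edgeR and 4.71% in DESeq2.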

How the data were processed

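Bone marrow αLPs were measured by single-cell RNA sequencing in 2 experiments. The authors aligned reads with Bowtie2 to Ensembl GRCm38, used Seurat 4, and deposited unnormalized read counts for every gene in every cell. Cell names start with the hashtag called, which gave the genotype. The 102 per-sample columns without a genotype call or called as doublets were not used, and no other doublet caller was run. As in the study, cells with over 10% mitochondrial reads or few reads (the fewest kept were 86505 and 6753) were removed, as were cells low in Id2, with the limit of 1 on the gate scale chosen here, and 6663 Gm and ribosomal protein genes were left out. Only genes with a row in both tables were tested (23058 before these were left out). The members and lists were chosen with earlier results of these data known.

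Counts were summed over the cells of a population, genotype and experiment, with at least 5 cells a sum, and tested with edgeR 4.0.16 (quasi-likelihood, TMM, Benjamini-Hochberg over all genes tested) in R 4.3.3, or DESeq2 1.42.0 as an alternative. The experiment was a block because its cells were combined and sequenced together. The fits were tested on simulated data, where few of the changed genes passed the threshold, so a missing call says little. Ratios used CPM + 1, and the 2-fold rule took genes with at least 10 CPM in 1 of the 2 sums in every experiment used. Members with at least 10 CPM in a WT population in both experiments, or called, were to be given by name. Thinned cells were drawn to the read limit of experiment 2.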

Additional observations from a re-analysis of the deposited data

How the results depend on the processing

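Tests were repeated with DESeq2, no TMM, no filter, no experiment block, other cell and gate limits and thinned cells. Fits of the 6 sums and the 2-fold rule were added after the data were seen. The difference of genotype effects was planned for Il1rl1+ against Zbtb16+ cells, while that for Icos+ cells and the shared fit were not planned. For the tests, 91 repeats kept a count of called members within 1.5 times and 15 did not. In Il1rl1+ against Zbtb16+ cells 0 members became 7 with DESeq2 (against 6.92% of genes), 1 without the Id2 limit (0.547%), 1 with a gate limit of 0.5 (0.763%), 5 with thinned cells (4.83%), and 6 (4.13%) and 7 (8.6%) with 3 populations in the fit, with all reads and thinned. In Icos+ against Zbtb16+ cells 0 became 3 (DESeq2, against 3.88%), 1 (thinned, 1.48%) and 3 (3 populations, thinned, 4.14%). In Ccr6+ cells 1 became 9 (DESeq2, against 12.4%), 0 (gates alone, 0%), 0 (gate limit 2, 0.00643%) and 4 (thinned, 3.15%). DESeq2 turned 0 into 6 in Eomes+ cells (9.22%). The remaining repeat was of the shared fit with 1 G3SEKO Il1rl1+ sum. Genes called in Il1rl1+ against Zbtb16+ cells were 88, against 1070 with DESeq2, 486 thinned, 630 with 6 sums, 0 with gates alone and 22 with a gate limit of 2.

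With no replicate block, that is without the pairing by experiment, 0 members were called except 1 in Ccr6+ cells. Genes called without it against with it were 75 and 88 in Il1rl1+, 1 and 2 in Icos+, 105 and 32 in Ccr6+, and 0 and 1 in Eomes+ cells against Zbtb16+, and between genotypes 0 and 25 in Icos+ and 2 and 3 in Il1rl1+ cells.

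For the 2-fold rule, 58 repeats of a count stayed within 1.5 times and 15 did not. With a single experiment, which leaves no test, the counts were 11 to 11 in Il1rl1+ (9 with both), 8 to 8 in Icos+ (3) and 6 to 8 in Eomes+ (2) against Zbtb16+ cells, and between genotypes 1 to 6 in Zbtb16+ (0) and 6 to 11 in Icos+ (3). The shares of all genes past 2-fold in experiments 1 and 2 alone were 22.4% and 19.2%, 23.2% and 19.8%, 36.2% and 38.7%, 36.9% and 8.34%, and 61.6% and 11.4% in the same order. The count was 6 in Icos+ with a gate limit of 2 (against 8.47% of genes), and in Eomes+ 6 with gates alone (18.5%), 6 with a gate limit of 2 (21.4%) and 4 without cells with Il1rl1 or Il2ra reads (9.98%). Between genotypes it was 1 in Zbtb16+ with gates alone (1.86%), 1 with a gate limit of 2 (3.63%), and 1 in Icos+ without cells with Il1rl1 or Il2ra reads (4.52%).

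Of the log2 ratios, 361 repeats kept direction and side of 2-fold, 43 fell inside it and 11 reversed. With a gate limit of 2 the reversed ones were, between genotypes in Il1rl1+ cells, Tnf (-1.87), Tnfrsf1a (-1.54), Tnfrsf21 (-2.96) and Tnfsf9 (-2.20), in Ccr6+ cells Tnfrsf1a (-0.10), and in WT Ccr6+ against Zbtb16+ cells Tnfrsf26 (0.17) and Tnfsf12 (-0.065). With a gate limit of 0.5 they were Tnfsf11 in Icos+ (0.33) and Tnfsf10 in Ccr6+ cells (-0.20) between genotypes, with thinned cells Tnfsf11 in WT Ccr6+ cells (0.17), and with CD3 cells left out Tnfsf8 in Eomes+ cells (-0.37). The cause was not tested. Gates alone were not run for the difference of genotype effects or the shared fit. Few cells stand behind the Ccr6+, Eomes+ and G3SEKO Icos+ sums of experiment 1, and experiment 2 has fewer reads a cell.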
